A study of Mus musculus with 20 samples.

Results

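The plasminogen system and the serine proteases of the follicle were followed here through 9 genes, chosen by name from the 55487 genes counted in each sample. They were the plasminogen activators Plat and Plau, the urokinase receptor Plaur, the serpins Serpine2 and Serpina5, and the secreted serine proteases Prss23, Prss35, Htra1 and Htra3. All 9 were matched by symbol to the identifiers of the files. The list was drawn up with earlier results of these data known, and Prss35 was placed on it because its level differed between the stages of the estrous cycle in FL1 mice.

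Messenger RNA was measured in mural granulosa cells (GCs), the cells that line the follicle wall, of 2 mouse lines in 2 stages of the cycle. FL1 is a mouse line selected over generations for large litters, and ctrl is the unselected line that descends from the same founder population. Estrus, in which vaginal smears hold only cornified cells, and diestrus, in which they hold only leucocytes, were each sampled in 5 ctrl and 5 FL1 mice aged 77 ± 5 days, so that there were 4 groups of 5 samples: ctrl estrus, ctrl diestrus, FL1 estrus and FL1 diestrus. Each sample was the GCs of 1 mouse, pooled from 7 to 10 of its largest follicles after the oocyte with its cumulus cells had been left behind. Each line is a single breeding population, so selection for litter size and any other feature in which the populations differ cannot be told apart.

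Plasminogen is a zymogen made mainly by the liver and reaches the follicle with the plasma. The tissue-type activator, encoded by Plat, and the urokinase-type activator, encoded by Plau, cleave it to plasmin, a serine protease that breaks down fibrin and extracellular matrix. Serpins trap these proteases in inactive complexes, and in the ovary the system is known for its part in matrix remodelling around ovulation, to which secreted proteases of the Prss and Htra families have also been linked.

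Between 5446576 and 8257041 reads per sample were assigned to genes, which was 48.9% to 58.4% of all reads. The mean correlation of a sample with the others of its group lay between 0.828 and 0.870. The lowest was FL1 diestrus replicate 1, and leaving out this library raised the genes called between the stages from 29 to 178 in FL1 mice and from 473 to 728 over both lines, so values without it are given beside the results it touches. Levels are given as CPM, the read count of a gene relative to the size of its library, scaled by TMM over all 20 samples. The granulosa transcription factor Foxl2 was detected in every sample at 256 to 650 CPM. The 9 granulosa markers summed to 5080 to 13879 CPM, while 6 leukocyte markers summed to 7.69 to 98.5 CPM, 6 endothelial markers to 12.5 to 132 CPM, 6 theca and stroma markers to 73.4 to 1049 CPM, 3 smooth muscle markers to 64.0 to 1160 CPM, 4 surface epithelium markers to 1.46 to 56.1 CPM, 4 erythrocyte markers to 42.4 to 1295 CPM and 5 oocyte markers to 42.4 to 516 CPM. The theca marker Insl3 had no read in 3 of the 4 groups and did not exceed 0.182 CPM in ctrl diestrus. Some of these sums also differed between the groups: the leukocyte markers lay at 35.4 to 98.5 CPM in FL1 estrus and at 7.69 to 16.0 CPM in ctrl diestrus, without overlap, and 1 of the 6, Lyz2, passed the test as higher in FL1 over both stages.

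Prss23 had the largest log2 difference between the stages among the genes tested, with Prss35 left aside. Prss35 was placed on the list by its stage difference in FL1 mice, so its own large difference follows from that choice. The sequences in front of both genes are shown for orientation. They are the 250 bases before the RefSeq start of each gene (GRCm38.p6), written 5′ to 3′ along the strand of the gene. Capitals mark matches, on either strand, to any of 9 short motifs: the TATA box TATAAA, the CCAAT box CCAAT, the GC box GGGCGG, the cAMP response element TGACGTCA and its shorter core TGACG (contained in the former), the NR5A site CAAGGTCA, the AP-1 site TGACTCA, the GATA site AGATAA and the E box CACGTG. Prss35 lies at chr9:86743383-86743632 on the plus strand and Prss23 at chr7:89527188-89527437 on the minus strand.
Prss35: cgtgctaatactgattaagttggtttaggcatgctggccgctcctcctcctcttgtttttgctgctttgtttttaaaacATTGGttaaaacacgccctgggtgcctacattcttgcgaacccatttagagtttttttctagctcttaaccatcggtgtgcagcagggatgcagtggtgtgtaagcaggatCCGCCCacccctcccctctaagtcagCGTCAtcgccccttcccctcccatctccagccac
Prss23: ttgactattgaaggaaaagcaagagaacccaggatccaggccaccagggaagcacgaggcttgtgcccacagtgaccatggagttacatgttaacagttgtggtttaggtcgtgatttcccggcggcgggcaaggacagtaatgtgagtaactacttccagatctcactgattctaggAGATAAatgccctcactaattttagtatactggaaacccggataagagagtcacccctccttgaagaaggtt

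The Prss35 sequence held 1 CCAAT box, 1 GC box and 1 TGACG core, all on the opposite strand. These motifs were found in 33.8%, 32.7% and 17.8% of 32851 mouse promoter windows of the same length. The Prss23 sequence held 1 AGATAA match, a motif present in 9.99% of the windows. The other motifs searched (TATAAA in 12.4% of windows, TGACGTCA in 1.55%, CAAGGTCA in 1.33%, TGACTCA in 4.46% and CACGTG in 6.02%) were not spelled out in either window. A match is a run of letters and not a measured binding site. Of the 9 genes 7 had a RefSeq window, all but Plat and Plau.

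**Figure D1:**
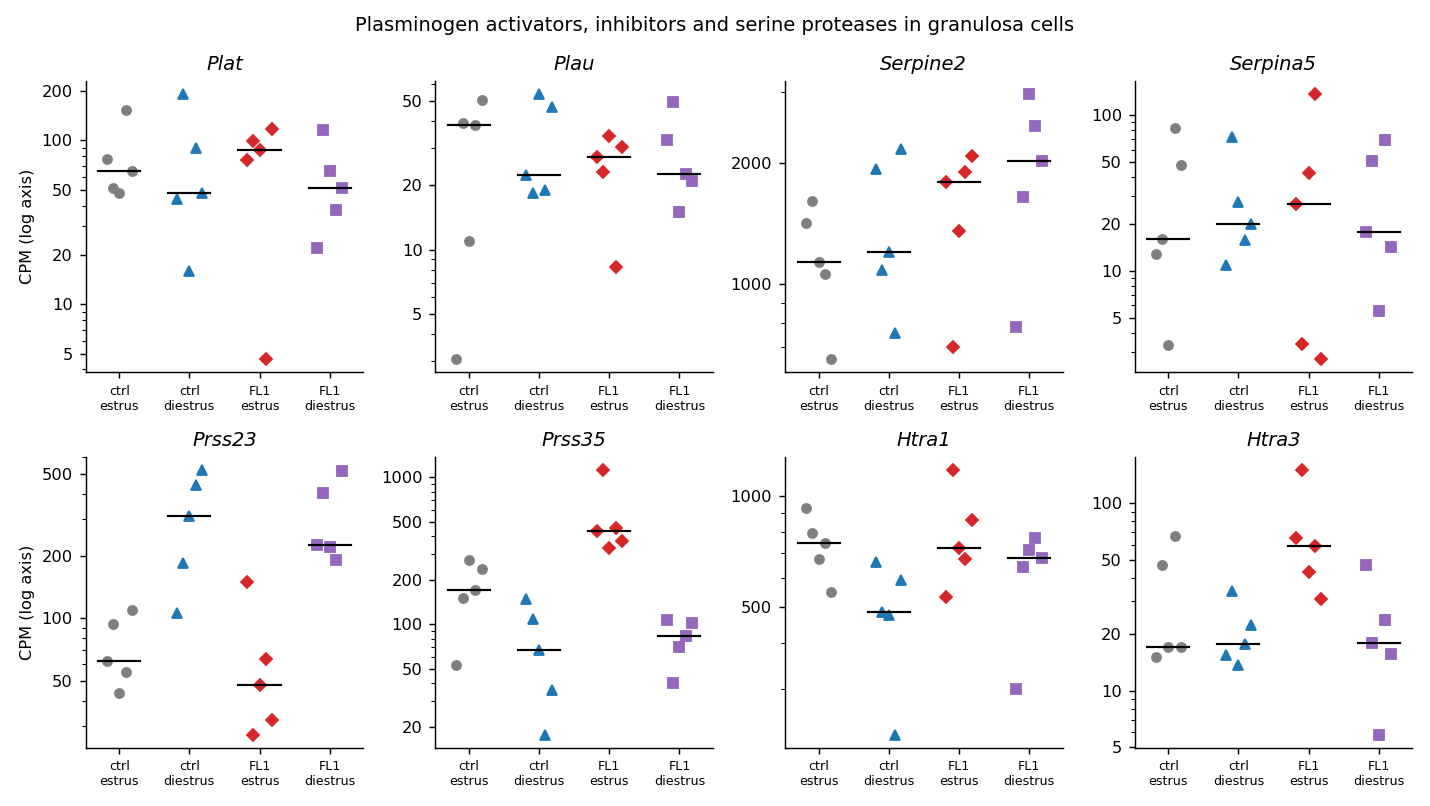
Levels of 8 genes in the 20 samples, as CPM on log axes, with a point for each mouse and a bar at the median of each group of 5; Plaur is left out because 16 of its 20 libraries held no read. Prss23 stands higher in diestrus in both lines, and Prss35, chosen by its stage difference in FL1, is highest in FL1 estrus (330 to 1123 CPM). The groups of Plat, Plau, Serpine2 and Serpina5 overlap throughout.

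Prss23 (ENSMUSG00000039405, chr7:89507783-89527187, minus strand on GRCm38) encodes a secreted trypsin-like serine protease. In ctrl mice its level was 62.1, 94.2, 43.6, 54.8 and 109.6 CPM in estrus and 106.3, 186, 311, 440 and 520 CPM in diestrus. In FL1 mice it was 150, 27.4, 47.8, 63.5 and 32.1 CPM in estrus and 225, 401, 220, 192 and 516 CPM in diestrus. All FL1 diestrus samples lay above all FL1 estrus samples, while in ctrl mice the lowest diestrus sample fell just below the highest estrus sample.

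Prss23 rose from 72.9 ± 27.9 CPM (SD, n = 5) in ctrl estrus to 313 ± 172 CPM in ctrl diestrus, a 4.29-fold ratio of the means. The log2 fold change was 2.09 ± 0.37 (SE), with an adjusted p of 0.0089 in edgeR's quasi-likelihood test, and the call held without each of the 10 samples in turn (adjusted p 0.0018 to 0.033). In FL1 mice the means were 64.2 ± 50.1 and 311 ± 141 CPM, a ratio of 4.84, and the log2 fold change was 2.26 ± 0.42 (adjusted p = 0.028). This FL1 call was less secure. It held in 4 of the 10 fits that left out a sample and was lost without FL1 estrus replicate 2, 3, 4 or 5 or FL1 diestrus replicate 2 or 5, with adjusted p between 0.051 and 0.088. Robust estimation (2.26, adjusted p = 0.087) and the replicate block (2.43, adjusted p = 0.064) also ended it. The log2 fold change itself stayed between 2.0 and 2.84 with a sample left out, and was 2.35 without FL1 diestrus replicate 1 (adjusted p = 0.010).

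Over both lines Prss23 was higher in diestrus by 2.19 ± 0.30 on the log2 scale (adjusted p = 1.2e-04), and it had the fifth lowest p of all 14938 genes tested. Leaving out each of the 20 samples in turn kept the log2 fold change between 2.06 and 2.46 and the call in place. The stage difference of Prss23 was not called different between the lines, with an interaction of 0.17 ± 0.58 on the log2 scale (adjusted p = 1.0). Between the lines its means were 64.2 CPM in FL1 and 72.9 CPM in ctrl in estrus, and 311 and 313 CPM in diestrus.

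An antisense gene, Prss23os, overlaps an exon of Prss23 on the opposite strand. It had 18 reads in 1 ctrl estrus library and none in the other 19, beside 189 to 3882 reads of Prss23 per library. The strand setting of the counting is not given, so these counts cannot show from which strand reads of the shared exon came. The granulosa markers also had higher median sums in diestrus, 8406 and 11978 CPM in ctrl estrus and diestrus and 8043 and 8585 CPM in FL1 estrus and diestrus. They summed to 6164 to 9489 CPM in ctrl estrus and 8178 to 13879 CPM in ctrl diestrus, and to 5080 to 9222 CPM in FL1 estrus and 8170 to 13694 CPM in FL1 diestrus. Of the 9 markers Fshr, Cyp19a1 and Inhba passed the test as higher in diestrus over both lines, and Fshr also in ctrl mice. In FL1 mice none of the 9 was called. The theca marker Cyp17a1 was called higher in diestrus too, in ctrl mice and over both lines, with medians of 10.4 and 82.7 CPM in ctrl estrus and diestrus and 15.2 and 52.6 CPM in FL1 estrus and diestrus. The sums over whole lists went the other way in ctrl mice, with medians of 725 CPM in estrus and 333 CPM in diestrus for the theca and stroma markers and 587 and 207 CPM for the smooth muscle markers. In FL1 mice these medians were 629 and 595 CPM for theca and stroma and 595 and 293 CPM for smooth muscle. The part of any of these cells in the Prss23 difference was not tested. In such bulk samples fewer cells of a type and less RNA per cell cannot be told apart.

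Prss35 (ENSMUSG00000033491, chr9:86743649-86758443, plus strand) encodes a secreted protein of the trypsin fold in which the catalytic serine is replaced by threonine. In ctrl mice it measured 52.6, 152, 275, 172 and 237 CPM in estrus and 150, 109.4, 66.9, 17.9 and 35.9 CPM in diestrus. FL1 mice had 434, 1123, 330, 450 and 367 CPM in estrus and 107.2, 40.1, 70.0, 84.1 and 102.2 CPM in diestrus. FL1 estrus stood above all other groups without overlap, and the remaining groups overlapped with each other. This separation contains the values by which Prss35 was chosen, so it is a description only. Of all genes 3.56% did not overlap between the lines in estrus, and 2.42% between the stages in FL1.

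The FL1 stage difference is the one by which Prss35 was chosen, so it is given as a description. The mean fell from 541 ± 329 CPM (SD, n = 5) in FL1 estrus to 80.7 ± 27.1 CPM in FL1 diestrus, a ratio of 6.70, and the log2 difference was -2.75 ± 0.35 (SE). The FL1 estrus samples take part in the comparison of the lines in estrus too. There the FL1 mean was 3.04 times the ctrl mean of 178 ± 85.7 CPM, and the log2 difference was 1.60 ± 0.38. In diestrus the lines measured 80.7 ± 27.1 CPM (FL1) and 75.9 ± 53.9 CPM (ctrl). The stage difference in FL1 minus that in ctrl was -1.52 ± 0.62 on the log2 scale, again a value that contains the contrast used to choose the gene.

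The stage comparison in ctrl mice used none of the samples by which Prss35 was chosen. Its level in diestrus was lower by 1.23 ± 0.47 on the log2 scale, with means of 178 CPM in estrus and 75.9 CPM in diestrus, and this did not pass the threshold (adjusted p = 0.28, unadjusted p = 0.019). The adjusted p stayed between 0.13 and 0.54 when each ctrl sample was left out. Without the filter on low counts it was 0.017.

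Beside Prss35, the summed level of 5 markers of luteinizing GCs (Lhcgr, Ptgfr, Akr1c18, Parm1 and Sfrp4) was also highest in FL1 estrus. It was 1125 to 4080 CPM there against 151 to 427 CPM in ctrl estrus, 239 to 583 CPM in ctrl diestrus and 273 to 2627 CPM in FL1 diestrus. No marker of the list was at 0 in all samples of a group. Akr1c18 and Lhcgr passed the test as higher in FL1 than in ctrl in estrus. Other lists also had their highest median in FL1 estrus. The medians in ctrl estrus, ctrl diestrus, FL1 estrus and FL1 diestrus were 7.97, 22.9, 37.2 and 7.55 CPM for the surface epithelium markers, 19.1, 8.29, 74.5 and 60.7 CPM for the leukocyte markers and 48.3, 28.9, 79.2 and 68.1 CPM for the endothelial markers. In the same order they were 587.3, 206.6, 594.7 and 293 CPM for the smooth muscle markers. Unlike Prss35, the leukocyte and endothelial markers had medians in FL1 diestrus not far below those in FL1 estrus. Within groups the levels of Prss35 and of the luteinizing markers had a Pearson correlation of 0.037 (permutation p = 0.87) and a Spearman correlation of -0.027 (permutation p = 0.91), adjusted p = 0.94 for both (n = 20, deviations from the group means). Pearson's and Spearman's coefficients were computed for 72 pairs of a gene and a marker list, and no pair had an adjusted p of 0.05 or less. The largest for Prss35 among these other lists was with the surface epithelium markers (Pearson r = 0.53, permutation p = 0.045, adjusted p = 0.30, and Spearman rho = 0.46, permutation p = 0.070, adjusted p = 0.32, n = 20). Without the 2 farthest samples r was 0.33. The part of these cells in the Prss35 level was not otherwise tested.

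The 3 genes whose levels over the 20 samples were most like Prss35, by Spearman's rho on log2 CPM among 14938 genes, were Tinagl1 (0.92), a secreted matrix protein, Hmgcs1 (0.91), an enzyme of cholesterol synthesis, and Me1 (0.90), the cytosolic malic enzyme. These points share the 4 groups, so the coefficients describe the group pattern and carry no test. Mean levels of Tinagl1 in ctrl estrus, ctrl diestrus, FL1 estrus and FL1 diestrus were 56.4, 12.1, 310 and 16.1 CPM.

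**Figure D2:**
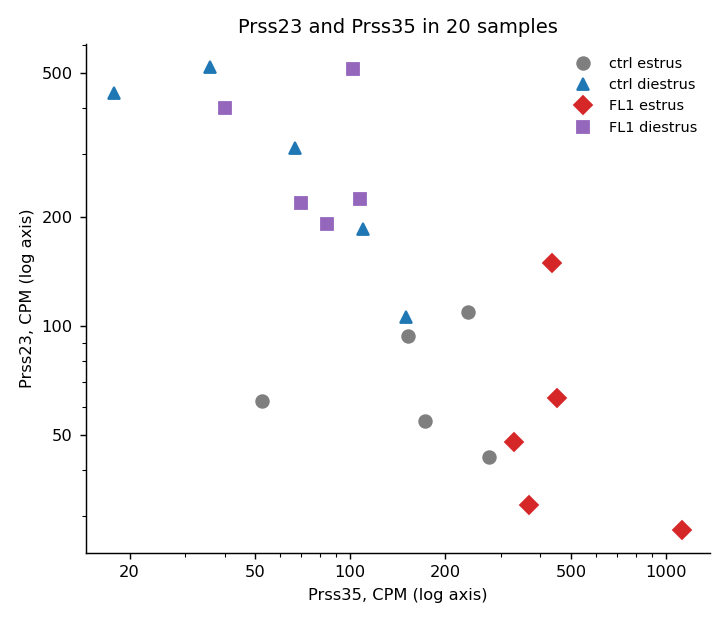
Prss23 against Prss35 in the 20 samples, both as CPM on log axes, with a symbol for each of the 4 groups of 5 mice. All 10 diestrus samples lie at 106.3 CPM or more of Prss23 and at 150 CPM or less of Prss35, and the FL1 estrus samples lie farthest to the right.

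Htra1 and Htra3 encode secreted serine proteases with a PDZ domain that cleave matrix proteins and bind members of the TGF-β family. Htra1 (ENSMUSG00000006205, chr7:130936111-130985660, plus strand) measured 927, 796, 675, 747 and 550 CPM in ctrl estrus and 663, 485, 475, 226 and 594 CPM in ctrl diestrus. The FL1 values were 532, 1177, 725, 676 and 862 CPM in estrus and 301, 642, 715, 771 and 680 CPM in diestrus. The groups overlapped in every comparison. The means were 739 ± 140 and 489 ± 166 CPM in ctrl estrus and diestrus and 794 ± 245 and 622 ± 186 CPM in FL1 estrus and diestrus (SD, n = 5). Its log2 fold change for diestrus against estrus was -0.60 ± 0.24 in ctrl (adjusted p = 0.32), -0.36 ± 0.26 in FL1 (adjusted p = 0.75) and -0.48 ± 0.18 over both lines (adjusted p = 0.19), none of which passed. Without FL1 diestrus replicate 1, the lowest of its group, the difference in FL1 was -0.19 (adjusted p = 0.79). Within groups Htra1 and the endothelial marker sum were inversely related, short of the threshold after adjustment. Pearson's r was -0.67 (permutation p = 0.0034, adjusted p = 0.062) and Spearman's rho -0.63 (permutation p = 0.0064, adjusted p = 0.09, n = 20). Spearman's rho was also negative with the theca and stroma (-0.63) and erythrocyte markers (-0.64), each with an adjusted p of 0.09. The part of these cells in the Htra1 level was not tested. Htra1 overlaps the gene Fgfr2 on the opposite strand without sharing an exon.

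Htra3 (ENSMUSG00000029096, chr5:35652023-35679782, minus strand) measured 15.05, 46.5, 17.1, 66.6 and 17.2 CPM in ctrl estrus and 15.6, 34.0, 13.6, 17.7 and 22.5 CPM in ctrl diestrus. FL1 mice had 65.2, 150, 42.8, 59.0 and 30.9 CPM in estrus and 46.6, 18.0, 5.85, 23.8 and 15.7 CPM in diestrus. FL1 estrus had the highest mean, 69.6 ± 46.9 CPM against 32.5 ± 23.1 CPM in ctrl estrus, 20.7 ± 8.13 CPM in ctrl diestrus and 22.0 ± 15.2 CPM in FL1 diestrus, but it overlapped with every other group.

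The log2 fold change of Htra3 for FL1 against ctrl in estrus was 1.10 ± 0.45 (adjusted p = 0.36) and for diestrus against estrus in FL1 -1.66 ± 0.47 (adjusted p = 0.16). Over both lines diestrus differed from estrus by -1.16 ± 0.35 (adjusted p = 0.069). DESeq2 placed the last 2 under the threshold, with adjusted p of 0.029 and 0.026, and so did edgeR without the filter on low counts, with adjusted p of 7.6e-04 and 0.014. Leaving out a sample gave a call in 1 of 10 fits in FL1, without FL1 diestrus replicate 1 (adjusted p = 0.026), and in 5 of 20 fits over both lines, with adjusted p between 0.034 and 0.17 over the 20 fits. These 5 were the fits without ctrl estrus replicate 1, 3 or 5, ctrl diestrus replicate 2 or FL1 diestrus replicate 1. Within groups Htra3 and the granulosa marker sum were inversely related, short of the threshold after adjustment (Pearson r = -0.68, permutation p = 0.0030, adjusted p = 0.062; Spearman rho = -0.68, permutation p = 0.0022, adjusted p = 0.079; n = 20). Without the 2 samples farthest from the median r was -0.68. The part of this in the stage difference was not tested.

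**Figure D3:**
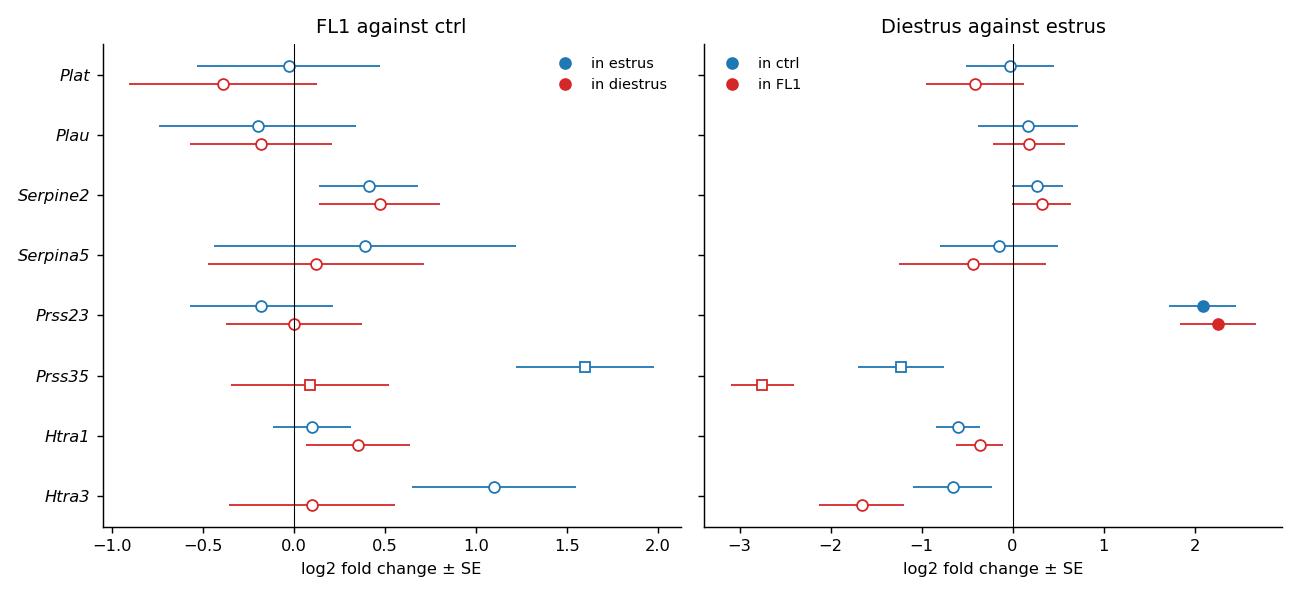
Log2 fold changes with SE (n = 5 per group) for FL1 against ctrl within each stage (left) and diestrus against estrus within each line (right). Filled circles passed an adjusted p of 0.05 in edgeR and open circles did not; squares mark Prss35, which was chosen by its FL1 stage difference and is drawn without a call. Filled points are Prss23 in ctrl (2.09) and in FL1 (2.26).

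Plat (ENSMUSG00000031538, chr8:22757727-22782844, plus strand), the tissue-type activator, passed the test in none of the comparisons. Its level was 77.6, 51.1, 47.5, 153 and 65.4 CPM in ctrl estrus and 43.8, 191, 16.0, 89.5 and 47.5 CPM in ctrl diestrus. The FL1 values were 76.3, 99.8, 87.7, 4.64 and 118 CPM in estrus and 22.0, 115.8, 65.2, 37.8 and 51.3 CPM in diestrus. All 4 groups overlapped, and the spread within a group was wide, from 3.21-fold between the lowest and highest mouse in ctrl estrus to 25.4-fold in FL1 estrus. The largest log2 difference of the 4 comparisons between groups was -0.41 ± 0.54, for diestrus against estrus in FL1 (adjusted p = 0.90), with means of 58.4 ± 35.8 and 77.2 ± 43.4 CPM.

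The Plat values were set beside those of oocyte transcripts. In both ctrl groups the mouse with the most Plat also had the highest sum of the 5 oocyte markers (Zp2, Zp3, Gdf9, Bmp15 and Ooep), 457 CPM in ctrl estrus and 366 CPM in ctrl diestrus. The mice with the least Plat in ctrl diestrus and FL1 estrus had the lowest sums of their groups, 42.4 and 156 CPM. The other extremes did not match. The mouse with the most Plat had 300.8 CPM of the markers in FL1 estrus, below a highest sum of 448.3 CPM, and 452.2 CPM in FL1 diestrus, below 516.3 CPM. The mouse with the least Plat had 89.27 CPM in ctrl estrus, above a lowest sum of 46.49 CPM, and 69.25 CPM in FL1 diestrus, above 57.62 CPM. Within groups the Pearson correlation was 0.56 (permutation p = 0.0034, adjusted p = 0.062) and the Spearman correlation 0.62 (permutation p = 0.0069, adjusted p = 0.090; n = 20), and r was 0.58 without the 2 samples farthest from the median. Neither passed the threshold after adjustment over the 72 pairs. The genes most like Plat over the 20 samples by Spearman's rho were Tcl1 (0.88), known from oocytes and early embryos, Oosp1 (0.88), a protein secreted by oocytes, and B4galt6 (0.87), a glycosyltransferase. The part of oocyte RNA in the Plat values was not tested further.

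**Figure D4:**
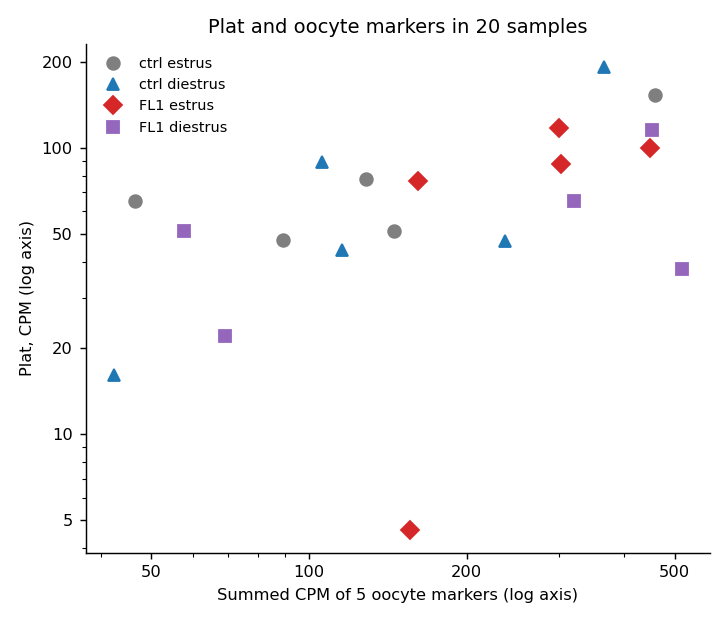
Plat against the summed level of 5 oocyte markers in the 20 samples, both as CPM on log axes, with a symbol for each of the 4 groups of 5 mice. Plat spans 4.64 to 191 CPM and the markers 42.4 to 516 CPM; the highest Plat value, in ctrl diestrus, has a marker sum of 366 CPM.

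Plau (ENSMUSG00000021822, chr14:20836660-20843385, plus strand), the urokinase-type activator, measured 3.07, 39.2, 11.01, 38.4 and 50.3 CPM in ctrl estrus and 22.4, 18.5, 53.6, 18.9 and 46.7 CPM in ctrl diestrus. In FL1 mice it measured 27.2, 23.2, 34.2, 8.301 and 30.3 CPM in estrus and 32.8, 49.2, 14.9, 22.6 and 21.03 CPM in diestrus. The group means were 28.4 ± 20.2, 32.0 ± 16.8, 24.6 ± 9.99 and 28.1 ± 13.4 CPM in that order (SD, n = 5). Its log2 differences were between -0.20 and 0.18 in the 4 comparisons between groups, each smaller than its SE, and none passed (adjusted p of 0.949 or more).

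Plaur (ENSMUSG00000046223, chr7:24462484-24475968, plus strand), which anchors urokinase at the cell surface, was near the limit of detection. It had 6 reads in ctrl estrus replicate 4, 1 read in ctrl diestrus replicate 2, 7 reads in FL1 estrus replicate 1 and 2 reads in FL1 estrus replicate 5. The other 16 libraries had none, and a count of 0 allows a level of up to 0.344 to 0.547 CPM (3 reads, depending on the depth of the library). It passed the filter on low counts in none of the fits, so no fold change is given.

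Serpine2 (ENSMUSG00000026249, chr1:79794197-79861180, minus strand), or protease nexin 1, inhibits thrombin, urokinase and plasmin. It measured 1419, 1607, 1134, 1058 and 653 CPM in ctrl estrus and 1924, 1084, 1201, 758 and 2161 CPM in ctrl diestrus. In FL1 mice it measured 1793, 697, 1352, 1898 and 2078 CPM in estrus and 784, 1640, 2955, 2471 and 2015 CPM in diestrus. The groups overlapped in every comparison.

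The means of Serpine2 were 1174 ± 365 and 1425 ± 592 CPM in ctrl estrus and diestrus, and 1564 ± 553 and 1973 ± 827 CPM in FL1 estrus and diestrus (SD, n = 5). FL1 differed from ctrl by 0.41 ± 0.27 on the log2 scale in estrus (adjusted p = 0.66) and by 0.47 ± 0.33 in diestrus (adjusted p = 1.0). Over both stages the difference was 0.44 ± 0.22 (adjusted p = 0.48, unadjusted p = 0.059). Leaving out each sample kept this difference between 0.35 and 0.53, without a call.

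Serpina5 (ENSMUSG00000041550, chr12:104101113-104106137, plus strand), the protein C inhibitor, also inactivates the plasminogen activators. It measured 12.9, 16.0, 3.33, 81.9 and 47.5 CPM in ctrl estrus and 10.9, 72.1, 27.8, 15.7 and 20.1 CPM in ctrl diestrus. FL1 mice had 26.8, 3.38, 42.4, 136 and 2.72 CPM in estrus and 17.8, 50.8, 5.52, 69.1 and 14.2 CPM in diestrus. It was the most variable of the 8 genes in ctrl estrus, FL1 estrus and FL1 diestrus, with coefficients of variation of 99.97%, 130.2% and 86.2%. No comparison passed (adjusted p of 0.89 or more), and the sign of its differences depended on single mice: without FL1 estrus replicate 4 the difference of the lines in estrus went from 0.39 to -0.78 on the log2 scale. Within groups Serpina5 and the sum of 6 leukocyte markers were directly related, short of the threshold after adjustment (Pearson r = 0.66, permutation p = 7.5e-04, adjusted p = 0.054; Spearman rho = 0.70, permutation p = 0.0010, adjusted p = 0.074; n = 20; r = 0.60 without the 2 farthest samples), which was not tested further.

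The calls were counted over the 8 genes that passed the filter, except that Prss35 was left out of every count that uses FL1 samples, since it was chosen by their values. Of the other 7 genes none was called between the lines in estrus by edgeR, where 0.769% of all genes tested were called, and DESeq2 called none of them and 310 of 13007 genes. The unadjusted p was below 0.05 for 1 of the 7, Htra3, and for 10.7% of all genes. All 7 overlapped, as did all but 3.56% of all genes. In diestrus none of the 7 was called by edgeR (0.248% of all genes) or by DESeq2, none had an unadjusted p below 0.05 (5.56% of all genes), and all overlapped (1.58% of all genes did not). Over both stages none of the 7 was called by edgeR (1.21% of all genes) or by DESeq2. None had an unadjusted p below 0.05 in edgeR (11.04% of all genes). In DESeq2 Serpine2 alone of the 7 did (unadjusted p = 0.036), against 1874 of 14938 genes. The interaction of line and stage was called for none of the 7 and for 0% of all genes by edgeR and by DESeq2. None of the 7 had an unadjusted p below 0.05 with either tool, against 710 of 14938 genes in edgeR and 758 in DESeq2.

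Between the stages 1 of the 8 genes was called in ctrl mice, Prss23, against 1.36% of all genes, and none of the 8 was free of overlap (3.66% of all genes). In FL1 mice 1 of the other 7 genes, Prss23, was called by edgeR and free of overlap, where 0.221% of all genes were called and 2.42% did not overlap. Over both lines Prss23 alone of the 7 was called by edgeR, against 3.17% of all genes. With Prss35 included the median log2 fold change of the 8 genes was -0.09 in ctrl, -0.39 in FL1 and -0.25 over both lines, with medians of 0.004, 0.012 and 0.020 over all genes tested. For FL1 against ctrl it was 0.24 in estrus and 0.09 in diestrus (all genes 0.005 and 0.011). The comparisons within a line share their estrus and diestrus samples with those within a stage, so they are not independent of each other.

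These shares over all genes depended on single libraries. Between the stages in FL1 mice the 29 calls became 178 of 13580 genes without FL1 diestrus replicate 1, and 18, 13, 14 and 14 without FL1 diestrus replicate 2, 3, 4 and 5. In ctrl mice the 175 calls fell to 88, 91 and 100 without ctrl estrus replicate 2, 3 and 4, and to 77 without ctrl diestrus replicate 5, and they also fell by more than 1.5 times without ctrl diestrus replicate 3. Over both lines the 473 calls rose to 728 without FL1 diestrus replicate 1. Between the lines the 100 calls in estrus fell to 66 without FL1 estrus replicate 1, and the 32 calls in diestrus fell to 21 without FL1 diestrus replicate 4. All other fits without a sample gave counts within 1.5 times those reported.

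A further 66 genes of the pathway were listed by role: 17 receptors, cofactors and coagulation partners, 23 inhibitors, and 26 other serine proteases. Between 33 and 42 of them passed the filter, depending on the comparison. Plasminogen itself (Plg) had 4 reads in 1 ctrl estrus library and none in the other 19.

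For FL1 against ctrl none of the pathway genes was called by edgeR, out of 36 tested in estrus, 33 in diestrus and 42 over both stages, and the interaction was called for none of 42, where the shares of all genes called were 0.769%, 0.248%, 1.21% and 0%. An unadjusted p below 0.05 was reached by 5, 4, 5 and 3 pathway genes, against 10.7%, 5.56%, 11.04% and 4.75% of all genes. DESeq2 called 1, 0, 0 and 0 pathway genes, and 310, 86, 377 and 0 of all genes. The gene called by DESeq2 in estrus was Lrp1, the endocytic receptor that clears protease and inhibitor complexes, named here after its values were seen. It had a log2 fold change of -1.16 ± 0.28 (edgeR adjusted p = 0.060), at 148 to 326 CPM in FL1 against 217 to 664 CPM in ctrl.

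For diestrus against estrus in ctrl mice 2 of 34 pathway genes were called, both higher in diestrus, against 1.36% of all genes. The median log2 fold change of the 34 was -0.37, and that of all genes 0.004. Masp1 (chr16:23449417-23520815), a protease of the lectin pathway of complement, measured 27.2, 16.5, 25.8, 21.1 and 23.2 CPM in ctrl estrus and 130, 137, 176, 39.2 and 145 CPM in ctrl diestrus, without overlap. It rose by 2.46 ± 0.32 on the log2 scale (adjusted p = 0.0010), and the call held without each sample in turn. Of all genes 3.66% did not overlap. A further 2 pathway genes, both lower in diestrus, were also free of overlap and were not called. Serpinb1a, an inhibitor of elastase-like proteases inside cells, rose by 1.38 ± 0.32 (adjusted p = 0.038), from 37.7 to 103.2 CPM in estrus to 85.3 to 272 CPM in diestrus. Its call held in 2 of the 10 fits without a sample, those without ctrl estrus replicate 5 or ctrl diestrus replicate 1, and the adjusted p reached 0.11.

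In FL1 mice none of 34 pathway genes was called by edgeR, where 0.221% of all genes were called. An unadjusted p below 0.05 was reached by 6 of them and by 9.48% of all genes, and DESeq2 called 2 of them (Anxa2 and Masp1) and 225 of 13114 genes. The same 2 were called by edgeR without FL1 diestrus replicate 1. Masp1 measured 30.9, 65.0, 24.2, 25.5 and 36.2 CPM in FL1 estrus and 57.7, 47.7, 182, 67.8 and 153 CPM in FL1 diestrus, so that the groups overlapped.

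Over both lines 5 of 42 pathway genes were called between the stages, of which 2 rose and 3 fell in diestrus, against 3.17% of all genes. The same 5 were called without FL1 diestrus replicate 1. They were 1 of 11 receptors and cofactors, 3 of 16 inhibitors and 1 of 15 other proteases, and the median log2 fold change of the 42 was -0.30, with 0.020 over all genes. Masp1 (1.97 ± 0.28, adjusted p = 1.2e-04) and Serpinb1a (1.26 ± 0.24, adjusted p = 0.0030) rose. Serpinb6a, another serpin that stays inside cells, fell by 0.74 ± 0.15 (adjusted p = 0.0051), from 238 to 556 CPM in the estrus groups to 148 to 288 CPM in the diestrus groups.

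Anxa2 and Slpi, the remaining called genes, were named after their values were seen. Anxa2, which binds plasminogen and its tissue-type activator at the cell surface, fell by 0.99 ± 0.23 (adjusted p = 0.015), from 207 to 852 CPM in estrus to 97.3 to 358 CPM in diestrus. Slpi, a secreted inhibitor of leukocyte proteases, rested on few reads. It had 13, 54 and 23 reads in 3 ctrl estrus libraries and 13, 13, 37 and 19 reads in 4 FL1 estrus libraries, against 5 reads in 1 of the 10 diestrus libraries. Its fitted log2 fold change was -5.13 ± 1.40 (adjusted p = 0.037), and the call held in 7 of the 20 fits without a sample, with adjusted p of up to 0.081.

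Some of these genes share sequence or position with others. Serpinb6a overlaps exons of Nqo2, Ripk1 and 1110046J04Rik and has 3 close copies, Serpinb1a has 1 close copy (Serpinb1-ps1), Anxa2 overlaps an exon of Gm16144 on the opposite strand, and Slpi overlaps Mir7678. The strand setting of the counting is not given in the sources used here, so the counts of these genes are uncertain to that extent. The same holds for Prss23, whose end has a close copy in its antisense gene Prss23os.

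**Figure D5:**
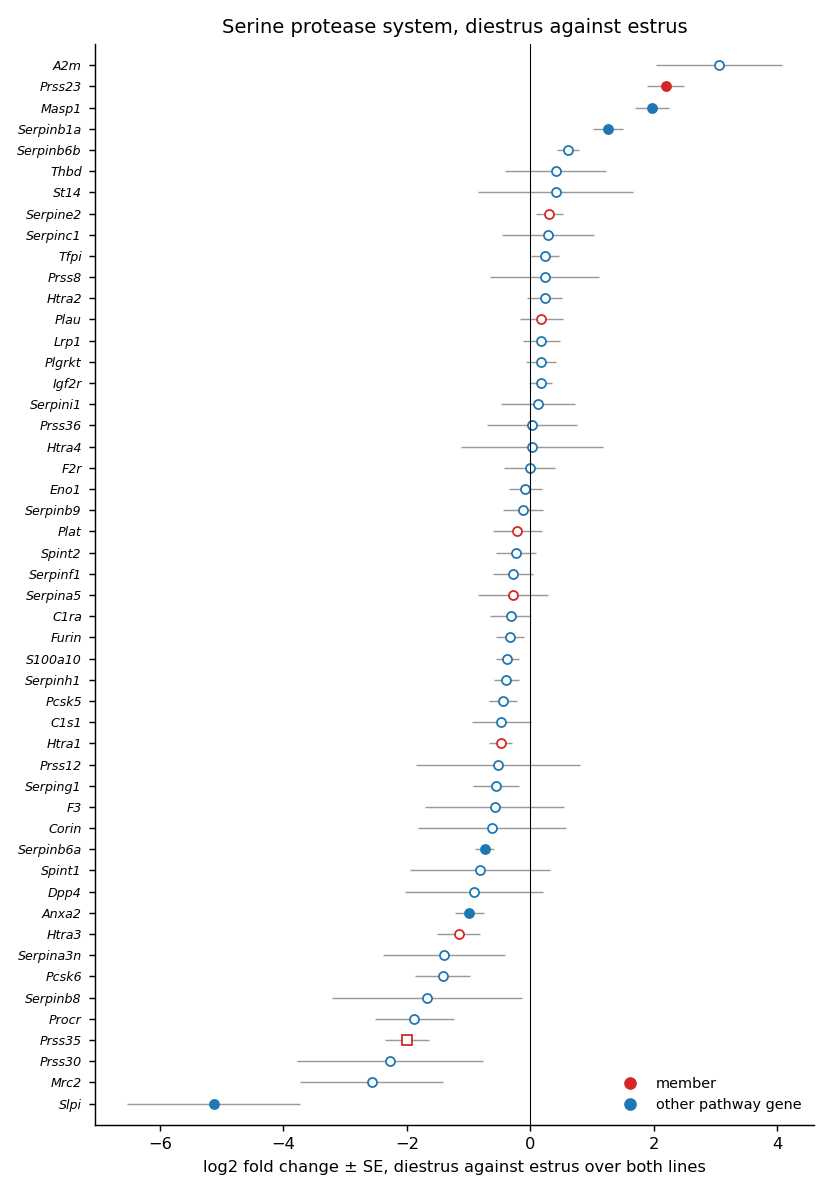
Log2 fold changes with SE for diestrus against estrus over both lines (20 samples), for the 8 tested genes of the set (red) and 42 other pathway genes (blue), ordered by size. Filled circles passed an adjusted p of 0.05 in edgeR and open circles did not; the square is Prss35, drawn without a call because it was chosen by its stage difference in FL1 mice. Prss23 (2.19) and Masp1 (1.97) are the highest filled points and Slpi (-5.13) the lowest.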

How the data were processed

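Messenger RNA of mural GCs was measured in 20 samples, 1 mouse each, as QuantSeq 3′ libraries, in which a transcript gives reads near its end whatever its length. The authors aligned the reads with STAR to GRCm38, as the labels name them, and deposited raw read counts per Ensembl gene. The counting tool's strand setting is not given in the sources used here, and the RNA extraction is described differently in the labels (TRIzol) and in the paper (a column kit). Rows of unassigned reads were left out, and 1 listed pathway gene is not reported here by name. Of 55487 identifiers 55227 were found in GENCODE M21.

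The members and all gene lists were chosen with earlier results of these data known. Counts were filtered by edgeR's filterByExpr (minimum count 10, minimum total 15, minimum share 0.7), normalized by TMM, and tested by the quasi-likelihood F test with Benjamini-Hochberg adjustment over all genes; a gene was called at an adjusted p of 0.05 or less, and the SE was the log2 fold change divided by the root of F. Each pairwise fit used its 10 samples; line over both stages, stage over both lines and their interaction used all 20. CPM were scaled by TMM over all 20 samples. Nothing says that the mice of a group were handled apart, so p-values measure the spread between these mice, and intervals of low counts cover counting error only. All members were named, with up to 3 called pathway genes of lowest p per comparison and the 3 genes most like Prss35 and Plat. Marker relations used log2 of the summed CPM plus 1, as deviations from group means, with 100000 permutations within groups (two-sided). Copies were sought by BLAST 2.17.0 in the last 500 bases of transcripts (90% identity over 100 bases).

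Alternatives were DESeq2, RLE size factors, no filter, all 20 samples in one fit, a replicate block, robust estimation, and fits without each sample. The models were tested on simulated data. R 4.3.3, edgeR 4.0.16, DESeq2 1.42.0, Python 3.11.15, NumPy 2.4.6, pandas 2.3.3, SciPy 1.17.1 and matplotlib 3.10.9 were used.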

Additional observations from a re-analysis of the deposited data

Results flagged for a closer look

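In 5 of the 32 groups of 5 mice examined (8 genes in 4 groups), the highest or lowest mouse lay apart from the others by more than 0.71 of the range of its group. This limit is set so that chance gives about 1 such group in 20 among normally distributed values, and its rate for levels as skewed as these was not tested. Prss35 was 1123 CPM in FL1 estrus replicate 2, with the next mouse at 450 CPM, and Htra3 was 149.9 CPM in the same mouse, with the next at 65.2 CPM. Without this mouse the log2 difference between the lines in estrus was 1.15 for Prss35 and 0.61 for Htra3, the lowest of the 10 values with a sample left out for each. Plat was 152.5 CPM in ctrl estrus replicate 4 (next 77.6 CPM), the mouse with the highest sum of oocyte markers in its group. Htra1 was 300.9 CPM in FL1 diestrus replicate 1, with the next lowest mouse at 642 CPM, and Serpina5 was 72.06 CPM in ctrl diestrus replicate 2 (next 27.8 CPM).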

How the results depend on the processing

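The stage difference of Prss23 in ctrl and over both lines kept its direction and its call under all alternatives, and in FL1 it kept its direction. Calls of the set's genes are given without Prss35 wherever FL1 samples entered. Between the lines in estrus Htra3 was called without the filter on low counts (373 of 24103 genes called). None was called there with DESeq2 (310 of 13007) or with a sample left out. Between the stages in ctrl Prss23 and Prss35 were called without the filter (348 of 24038). Between the stages in FL1 Prss23 and Htra3 were called with DESeq2 (225 of 13114) and without the filter (299 of 24355). Neither was called with robust estimation (26 of 13114). With a sample left out Prss23 was called in 4 of 10 fits and Htra3 in 1, with 13 to 178 genes called. Over both lines Prss23 and Htra3 were called with DESeq2 (791 of 14938) and without the filter (617 of 26886). For the other pathway genes, the lines in estrus gave 1, Lrp1, with DESeq2 (310 of 13007 genes called) and without the filter (373 of 24103). With a sample left out they gave 0 to 1, with 1 without ctrl estrus replicate 5 (124 of 13562) or FL1 estrus replicate 3 (97 of 13441). The stages in ctrl gave 6 with DESeq2 (423 of 12850), 6 without the filter (348 of 24038) and 4 with all samples in one fit (163 of 14938). With a sample left out they gave 1 to 2, with 77 to 176 genes called. The stages in FL1 gave 2 with DESeq2 (225 of 13114), 3 without the filter (299 of 24355) and 0 to 2 with a sample left out (13 to 178 genes called). The lines over both stages gave 1 pathway gene without the filter, Prss30 (319 of 26886 genes called), and the stages over both lines gave 9 with DESeq2 (791 of 14938). The cause of these changes was not tested.

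Log2 fold changes that changed sign in any fit were between -0.44 and 0.39 as reported and were called in no fit. The ranges that follow are over the fits with a sample left out. For the lines in estrus the log2 range was -0.23 to 0.36 for Plat, -0.49 to 0.11 for Plau, -0.76 to 0.02 for Prss23, -0.08 to 0.23 for Htra1 and -0.78 to 1.09 for Serpina5. For the lines in diestrus the log2 range was -0.81 to 0.25 for Plat, -0.49 to 0.08 for Plau, -0.17 to 0.49 for Prss35, -0.26 to 0.25 for Prss23, -0.37 to 0.34 for Htra3 and -0.40 to 0.76 for Serpina5. For the stages in ctrl the log2 range was -0.68 to 0.36 for Plat, -0.11 to 0.48 for Plau and -0.79 to 0.56 for Serpina5. For the lines over both stages the log2 range was -0.40 to 0.10 for Plat, -0.36 to 0.02 for Prss23 and -0.31 to 0.56 for Serpina5. For the interaction the log2 range was -0.79 to 0.28 for Plat, -0.29 to 0.30 for Plau, -0.14 to 0.26 for Serpine2, -0.09 to 0.76 for Prss23 and -0.99 to 0.88 for Serpina5. For the stages in FL1 the log2 range was -0.12 to 0.34 for Plau and -0.95 to 0.72 for Serpina5. For the stages over both lines the log2 range was -0.59 to 0.27 for Serpina5. The difference of Prss23 between the lines in diestrus was 0.00 with DESeq2 and 0.00 with RLE factors.

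The replicate numbers did not pair the samples: deviations of same-numbered samples from their group means correlated between -0.116 and 0.117, and at most 1 of 5 samples correlated best with its own number. With the replicate block Prss23 was not called between the stages in FL1 (2.43, adjusted p = 0.064), and Slpi was not called over both lines (-5.34, adjusted p = 0.074). Of all genes 28 of 13114 and 422 of 14938 were called in these 2 fits. Under the block the sign changed for Plau (0.11) and Serpina5 (-0.04) between the lines in estrus, for Prss23 (0.10), Htra3 (-0.14) and Serpina5 (-0.09) between the lines in diestrus, and for Serpina5 between the stages in ctrl (0.20) and FL1 (0.17).

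With 0 to 7 reads per library Plaur did not pass the filter on low counts, so no difference between groups is given for it.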
